A study of Mus musculus with 20 samples.

Results

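Flank tissue of mice taken 20 days after the vector Ad-VEGF-A164 is compared here with flank tissue of day 0, with the vessels, the mural cells around them and the stroma in view. Ad-VEGF-A164 is an adenovirus that makes the cells it infects produce VEGF-A164, a soluble isoform of the growth factor VEGF-A, which makes vessels sprout. The 5 arrays of day 20 are those whose title and source name both give day 20 of Ad-VEGF-A164, and the 5 control arrays are those labelled as flank tissue of day 0. They come from a time course of 20 arrays, which also holds 4 arrays of day 5 and 5 of day 60 of the same vector. The remaining array carries the title of a day 5 sample and the source name of a day 0 control, so it entered no group. The controls are tissue of day 0, no empty vector is named among the groups, and effects of the adenovirus and of its growth factor therefore cannot be told apart. Strain, sex, age, vector dose and the layers of the flank that were taken were not stated in the labels read here. No label says that the arrays of a group came from separate animals, so p-values measure the spread between these arrays.

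A new vessel starts as a tube of endothelial cells on a basement membrane, and it becomes stable when mural cells settle on it. These are pericytes on small vessels and smooth muscle cells on larger ones. Endothelial PDGF-B draws them in through the receptor PDGFR-beta, angiopoietin 1 from mural cells acts on the endothelial receptor Tie2, and TGF-beta and Notch signals between both cells shape the wall. Fibroblasts around the vessel lay down collagens, elastic fibres and proteoglycans. Flank tissue subjected to a VEGF-A vector is a model in which such vessels can be followed over time.

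Each value is a MAS5 signal, the linear brightness that the authors' software gave for 1 probe set after it had scaled all arrays alike. A probe set is a set of short probes that reads 1 or more transcripts. A signal has no absolute unit, so levels are compared between arrays for the same gene and never between genes. Tests were made on log2(signal + 100), which understates the changes of dim genes, with 1 fit of limma over all 19 assigned arrays, and adjusted p-values cover the 13594 genes with a mean signal of at least 300. That mean was taken over all 19 arrays, so a gene dim in control could meet the minimum through the other groups. A gene was called at an adjusted p under 0.05, and every log2 change is day 20 minus the other group with its standard error (SE). Of all tested genes 2123 (15.6%) rose and 1974 (14.5%) fell on day 20 against control, and the median change over all of them was -0.06. When the array with conflicting labels was counted as a control, 1320 rose and 1034 fell. That array had a Vegfa signal of 11111, against 66.5 to 467 on the control arrays and 3927 to 9410 on the day 5 arrays. Each group holds few arrays, and this number limits the precision of every value below.

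The arrays of day 20 were close to each other in overall brightness, with median signals of 452 to 465, against 406 to 569 on the control arrays. RNA integrity was read from Actb, whose 3' probe set exceeds its 5' probe set more as RNA breaks. That ratio was 2.60 to 7.56 on the day 20 arrays and 4.15 to 9.12 on the control arrays. It was 2.95 to 7.31 on the day 5 arrays and 4.32 to 13.97 on the day 60 arrays. With this ratio as a covariate 1915 genes rose and 1649 fell. The gene of the vector was read first. On the probe set used for it Vegfa had signals of 9141, 7451, 7128, 9046 and 13514 on the day 20 arrays, against 145, 66.5, 142, 162 and 467 on the control arrays (arrays A to E in each group, here and below; log2 change 5.07 ± 0.35 SE, adjusted p = 5.93e-09). The lowest day 20 array was far brighter than any control array. A second Vegfa probe set went the other way, at 1029 ± 146 on day 20 and 2022 ± 479 in control (SD, n = 5 each). In control this second probe set was the brighter one. The probe set used was the one with the highest mean signal, and arrays of the vector entered that mean. Its choice was therefore not independent of the values compared here. With the mean of all probe sets the log2 change of Vegfa was 2.09. On day 60 the probe set used for Vegfa read 463 ± 354 (SD, n = 5).

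The tissue around the vessels also differed between the groups, and each result below stands beside these values. All 7 tested adipocyte markers fell, with a summed signal of 3496 to 5421 on the day 20 arrays against 47160 to 139356 on the control arrays. Of 10 tested markers of glandular luminal epithelium 8 fell, and their sum was 6447 to 11302 on day 20 against 65319 to 85444 in control. None of 11 skeletal muscle markers passed, although their sum was 413105 to 984187 on day 20 against 722240 to 1150550 in control. Of 11 tested proliferation genes 9 rose, and of 10 tested macrophage markers 2 rose and 1 fell, with sums over all 11 listed markers of 75206 to 161669 on day 20 against 46207 to 107738 in control. The macrophage counts are near the 15.6% and 14.5% of all tested genes that rose and fell. Dim probe sets also give a signal, and 39.1% to 39.9% of all probe sets read under 300 on the day 20 arrays. These sums therefore do not show that cells of each type were present in both groups. The part of these shifts in the results below was not tested. In bulk tissue, fewer cells of a type and less RNA per cell cannot be told apart.

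The genes of vessels, mural cells and stroma were grouped in 25 lists of 383 genes in all, and the tested members of each list were counted by their calls. Members and lists were chosen with earlier results of these data known, so the counts per list, here and below, are a description. The sets of genes with the highest share of risers were the endothelial identity genes (18 of 19), the sprouting tip cell genes (16 of 17) and the fibrillar collagens (12 of 14). A single list held no riser, the resting fibroblast genes, of which 7 of 14 fell.

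**Figure D1:**
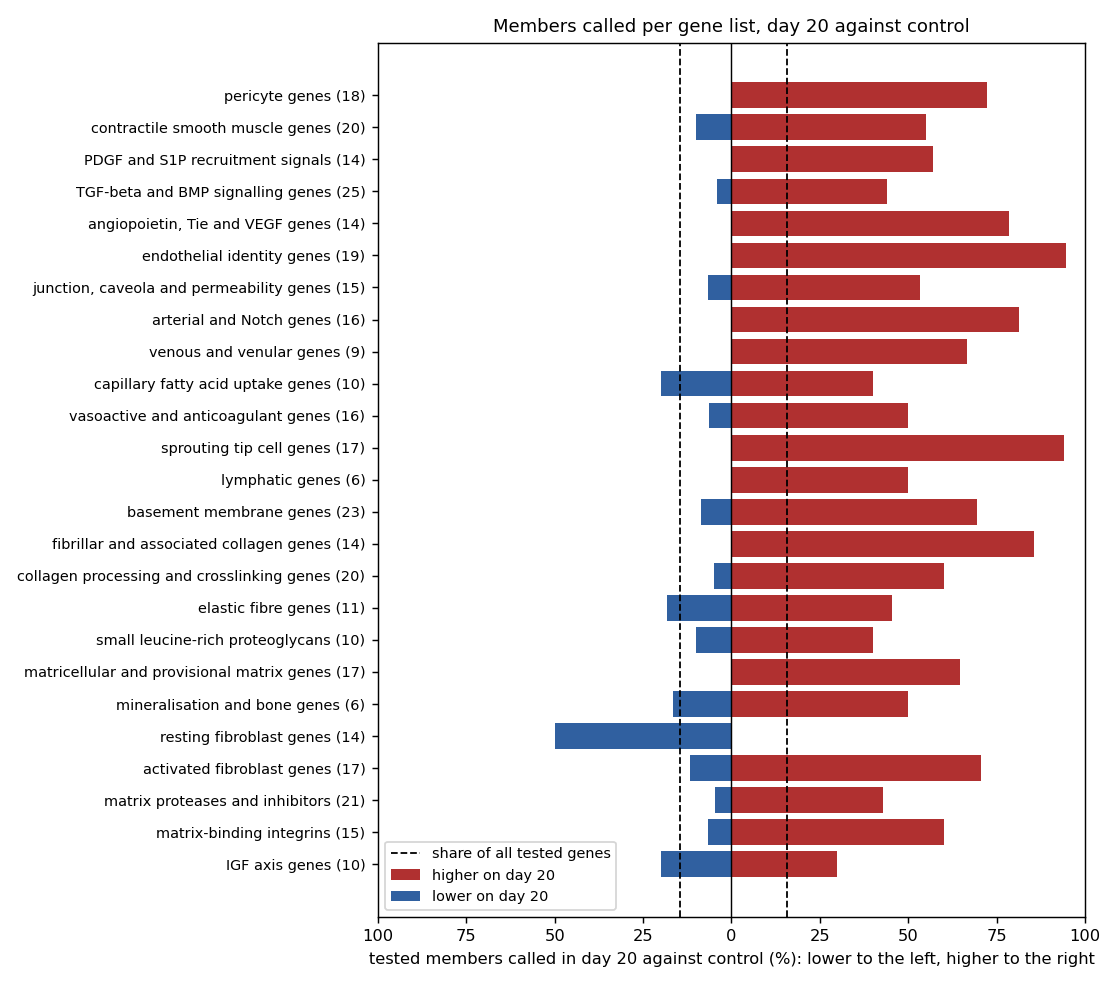
Share of the tested members of each list that passed in day 20 against control, with those higher on day 20 to the right and those lower to the left (% of the number in brackets). Dashed lines mark the 15.6% and 14.5% of all tested genes that passed in each direction. The endothelial, tip cell and collagen lists reach furthest to the right, and the resting fibroblast list lies on the left alone. The lists were chosen with earlier results of these data known.

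Pericyte genes were higher on day 20 in most cases. Of 18 tested genes 13 rose and none fell against control, and the median log2 change was 1.61. Those 13 showed no overlap, with each day 20 array brighter than every control array, as held for 12% of all tested genes. Pdgfrb, the receptor for PDGF-B on mural cells, had signals of 49616, 62148, 64935, 51892 and 54104 on the day 20 arrays, against 10644, 7099, 12718, 12034 and 10597 on the control arrays (log2 change 2.42 ± 0.20 SE, adjusted p = 5.06e-08). Rgs5, a regulator of G protein signals that marks pericytes, had 105176, 102583, 117172, 101048 and 137287 on the day 20 arrays, against 24896, 14623, 15617, 18677 and 24125 on the control arrays (log2 change 2.54 ± 0.26 SE, adjusted p = 8.67e-07). In both genes the groups lay well apart.

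The steepest pericyte gene was Gucy1a1, which with Gucy1b1 makes soluble guanylate cyclase, the receptor through which nitric oxide relaxes the vessel wall. Gucy1a1 had signals of 6566, 7003, 6599, 8639.8 and 8041 on the day 20 arrays, against 774, 937, 636, 778 and 689.8 on the control arrays (log2 change 3.11 ± 0.20 SE, adjusted p = 2.05e-09). Gucy1b1 had 5348, 5856, 5099, 6126 and 6117 on the day 20 arrays, against 827, 481, 548, 701 and 657 on the control arrays (log2 change 2.98 ± 0.22 SE, adjusted p = 1.79e-08). The 2 subunits thus stood 8.66-fold and 7.9-fold higher, while the endothelial nitric oxide synthase Nos3 was at 1429 ± 266 on day 20 and 1107 ± 413 in control (SD, n = 5 each) and did not pass (adjusted p = 0.167). Notch3, the Notch receptor of mural cells, had 21411, 20023, 19458, 19432 and 22854 on the day 20 arrays, against 6449, 6307, 7585, 7043 and 7306 on the control arrays (log2 change 1.56 ± 0.15 SE, adjusted p = 2.66e-07), again with no overlap. Cspg4, the proteoglycan NG2 of pericytes, had a log2 change of 1.66 (adjusted p = 2.08e-06).

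Over all tested genes 3.05% were higher and 2.25% lower on day 20 than on day 5, whereas 8 of the 18 pericyte genes passed as higher and none as lower (median log2 change 0.57, against 0.01 for all tested genes). The comparisons of day 20 with control, day 5 and day 60 share the day 20 arrays. The tissue around the vessels differed between these groups as well. Of 10 tested macrophage markers 3 passed as lower on day 20 than on day 5 and none as higher (median log2 change -1.37). Over all 11 listed markers the sum was 75206 to 161669 on day 20 against 179873 to 252396 on day 5. Of 11 proliferation genes 3 passed as lower (median -0.67), with sums of 44132 to 50569 on day 20 against 66428 to 75680.3 on day 5. None of the adipocyte markers passed (median -1.13), although their sum was 3496 to 5421 on day 20 against 7436 to 12148 on day 5. None of the skeletal muscle markers passed (median 0.67), with sums of 413105 to 984187 on day 20 against 228107 to 740328 on day 5. The part of these shifts in the changes against day 5, here and below, was not tested.

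Gucy1a1 read 7369.6 ± 927 on day 20 (n = 5) and 2308 ± 731 on day 5 (SD, n = 4; log2 change 1.68 ± 0.21 SE, adjusted p = 0.000121). Rgs5 read 112653 ± 15159 on day 20 and 42671 ± 11933 on day 5 (log2 change 1.44 ± 0.28 SE, adjusted p = 0.00481). Pdgfrb read 56539 ± 6659.9 on day 20 and 26488 ± 2521 on day 5 (log2 change 1.09 ± 0.21 SE, adjusted p = 0.00453). Steap4, a metalloreductase of pericytes and fat, took another course, with signals of 15746, 12676, 11658, 15248 and 14062 on the day 20 arrays, against 11877, 10083, 11176, 11105 and 17609 on the control arrays (log2 change 0.18 ± 0.17 SE, adjusted p = 0.445) and of 3375, 4144, 5705 and 3995 on the 4 day 5 arrays. It thus did not pass against control and was 3.21-fold higher than on day 5 (log2 change 1.68 ± 0.18 SE, adjusted p = 4.25e-05). The call of Gucy1b1 against day 5 (log2 change 1.03 ± 0.23 SE, adjusted p = 0.0134) was lost without day 5 array B (adjusted p = 0.0554).

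Against day 60, 14 of 18 passed as higher on day 20 and none as lower, beside 11.2% and 11% of all tested genes. Of the markers of other cells, 5 of 7 for adipocytes and 8 of 10 for glandular luminal epithelium passed as lower on day 20 than on day 60. Adipocyte markers summed to 3496 to 5421 on day 20 against 4193 to 62912 on day 60, and epithelial markers to 6447 to 11302 on day 20 against 25570.1 to 63398 on day 60. Their part in the changes against day 60 was not tested. RNA integrity differed as well, with Actb ratios of 2.60 to 7.56 on day 20 against 4.32 to 13.97 on day 60. The same ratio for Gapdh was 1.77 to 2.71 on day 20 against 1.68 to 7.72 on day 60. All changes against day 60, here and below, stand beside this difference, and its part in those of the pericyte genes was not tested. Pdgfrb read 56539 ± 6659.9 on day 20 and 11377 ± 4027 on day 60 (log2 change 2.37 ± 0.20 SE, adjusted p = 1.01e-07). Rgs5 read 112653 ± 15159 on day 20 and 27289.9 ± 14341 on day 60 (log2 change 2.17 ± 0.26 SE, adjusted p = 8.71e-06).

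**Figure D2:**
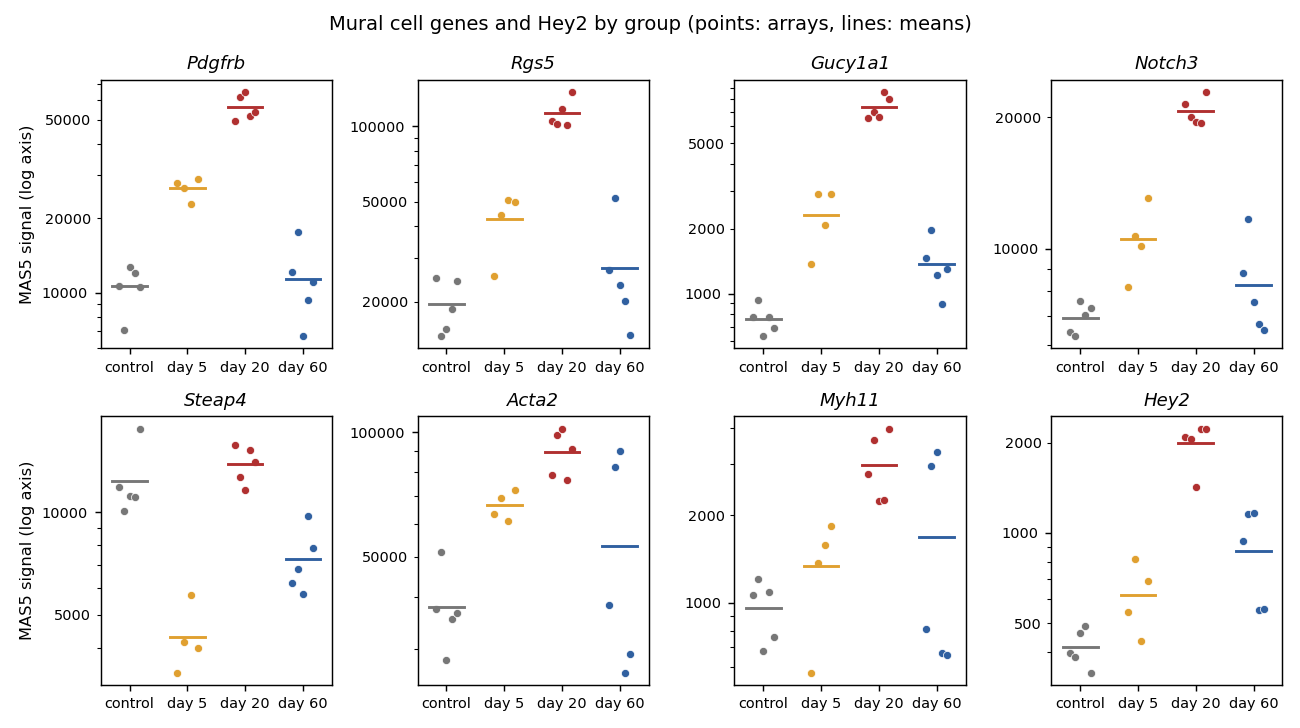
MAS5 signals (log axes) of 7 mural cell genes and of the Notch target Hey2 in control, day 5, day 20 and day 60; points are arrays and lines are group means. Pdgfrb, Rgs5, Gucy1a1, Notch3 and Hey2 have all 5 day 20 arrays above every array of the other 3 groups, and Steap4 is at its lowest on day 5.

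Contractile smooth muscle genes rose less evenly. Of 20 tested genes 11 rose and 2 fell, and the median log2 change was 0.91. Acta2, smooth muscle actin, had signals of 78749, 98277, 102007, 76688 and 91105 on the day 20 arrays, against 37442, 51426, 28168, 35445 and 36515 on the control arrays (log2 change 1.26 ± 0.27 SE, adjusted p = 0.00176). Myh11, the smooth muscle myosin heavy chain, had 2772, 3626, 2241, 2261 and 3974 on the day 20 arrays, against 1063, 1208, 681, 1086 and 758 on the control arrays (log2 change 1.53 ± 0.39 SE, adjusted p = 0.00639). The actin-binding protein gene Tagln had 11373, 25216, 20581, 11825 and 13928 on the day 20 arrays, against 5747, 6723, 3557, 5282 and 6662 on the control arrays (log2 change 1.51 ± 0.38 SE, adjusted p = 0.00524). The groups did not overlap in these genes, though the day 20 arrays of Tagln themselves ranged from 11373 to 25216. The largest rise of the list was in the enteric smooth muscle actin Actg2, at 4768 ± 1615 on day 20 and 907 ± 388 in control (SD, n = 5 each; log2 change 2.31 ± 0.39 SE, adjusted p = 0.000198). Ppp1r14a, an inhibitor of myosin phosphatase, came next (log2 change 2.15 ± 0.38 SE, adjusted p = 0.00028), and with a pseudocount of 1 the log2 change was 3.46 and with 500 it was 1.02. Cnn1, calponin, lay under the minimum signal and was not tested.

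Promoters of 2 contractile genes are shown because serum response factor, which switches on contractile genes together with myocardin, binds the CArG box. The 250 bases before the transcription start come from RefSeq on GRCm38.p6, and capitals mark a CArG box or a form of it with 1 other base in its core. Myl9, the regulatory light chain of smooth muscle myosin, was chosen after its values were seen (log2 change 1.86 ± 0.37 SE, adjusted p = 0.000799).
Acta2, chr19:34255374-34255623, minus strand: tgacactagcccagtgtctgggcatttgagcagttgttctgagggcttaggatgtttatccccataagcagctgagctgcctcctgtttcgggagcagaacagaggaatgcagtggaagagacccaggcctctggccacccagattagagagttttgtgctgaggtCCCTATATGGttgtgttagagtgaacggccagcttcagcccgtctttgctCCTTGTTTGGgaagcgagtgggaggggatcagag
Myl9, chr2:156775214-156775463, plus strand: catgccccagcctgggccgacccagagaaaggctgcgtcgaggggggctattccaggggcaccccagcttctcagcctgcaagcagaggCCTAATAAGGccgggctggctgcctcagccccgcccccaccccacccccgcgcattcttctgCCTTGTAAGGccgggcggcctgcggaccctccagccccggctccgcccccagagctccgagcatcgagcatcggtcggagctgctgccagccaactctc
In Myl9 the exact CArG box stood 161 bases and a looser form 99 bases before the start, and in Acta2 looser forms stood 84 and 34 bases before it. Of 17 contractile genes with an entry, on 20 promoters, 1 promoter (5%) held the exact box and 3 (15%) the box or its looser form, those of Acta2, Myl9 and Hspb6. Of all 32851 promoters 1.47% held the exact box and 8.59% either form, searched on both strands. These matches are letters in a window and no measurement of binding.

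Des and Synpo2 were the 2 members that fell, and skeletal muscle, which the flank holds, uses both. None of the 11 skeletal muscle markers passed against control, and the part of muscle in these 2 falls was not tested. Des, the intermediate filament protein desmin, had signals of 3463, 2102, 2794, 3280.3 and 3641 on the day 20 arrays, against 10130.5, 4112, 6704, 7032 and 8038 on the control arrays (log2 change -1.18 ± 0.38 SE, adjusted p = 0.0238). Synpo2, an actin-bundling protein, had 8427, 5129, 5856, 6996 and 11821 on the day 20 arrays, against 26556, 10359, 17796, 20729.9 and 28016 on the control arrays (log2 change -1.40 ± 0.43 SE, adjusted p = 0.0181). The day 20 arrays of Des all lay below the control arrays, and those of Synpo2 overlapped with them at a single control array. Neither call was firm. The adjusted p of Des was 0.0659 without control array A, 0.0511 without control E and 0.0656 without day 20 B, that of Synpo2 was 0.051 without day 20 B, and the probe sets of Synpo2 were called in both directions. Over all tested genes 3.05% were higher and 2.25% lower on day 20 than on day 5. Against day 5, 4 of 20 tested contractile genes passed as higher on day 20 and none as lower. They were Pln, the regulator of the calcium pump (log2 change 1.76 ± 0.39 SE, adjusted p = 0.0107), the integrin subunit Itga8 (log2 change 1.53 ± 0.32 SE, adjusted p = 0.0074), the myosin light chain kinase Mylk (log2 change 1.13 ± 0.22 SE, adjusted p = 0.00536) and the actin nucleator Lmod1 (log2 change 0.99 ± 0.23 SE, adjusted p = 0.016), of which Mylk and Lmod1 were named after their values were seen. Pln and Lmod1 did not pass against control (adjusted p = 0.131 and adjusted p = 0.127), and the call of Lmod1 was lost without day 5 array B (adjusted p = 0.0586) or C (adjusted p = 0.0639).

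Of 14 tested genes of PDGF and S1P recruitment 8 rose and none fell. The ligand Pdgfb had 2712, 2609.6, 2028, 2352 and 3328 on the day 20 arrays, against 1351, 859.7, 1364, 1225 and 1225 on the control arrays (log2 change 1.05 ± 0.18 SE, adjusted p = 0.000271). Pdgfa, its relative made by many cells, had 14340.1, 23345, 17383, 18012 and 13849 on the day 20 arrays, against 5388, 5737, 5331, 5201 and 5779.9 on the control arrays (log2 change 1.62 ± 0.15 SE, adjusted p = 2.99e-07). In both ligands every day 20 array exceeded every control array. S1pr1, the endothelial receptor for sphingosine 1-phosphate that tightens junctions, rose by 0.72 (adjusted p = 0.0013), and Cxcr4, the receptor for the chemokine CXCL12, by 2.43 (adjusted p = 3.35e-06). Pdgfb did not differ from day 5 by the test (log2 change 0.05 ± 0.20 SE, adjusted p = 0.931), in contrast to its receptor Pdgfrb, which did. The difference between these 2 changes was not tested.

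Angpt2, made by endothelial cells and able to loosen the vessel wall, had 3789.8, 4447, 3042, 4187 and 4425 on the day 20 arrays, against 511, 641, 913, 1177 and 695 on the control arrays (log2 change 2.23 ± 0.18 SE, adjusted p = 4.07e-08). Angpt1, the stabilising ligand from mural cells, had 1721, 1862, 1704, 1633 and 1815 on the day 20 arrays, against 2013, 1548, 2242, 2594 and 2471 on the control arrays and did not pass (log2 change -0.28 ± 0.14 SE, adjusted p = 0.128). Its day 20 arrays lay within the control range, and all of them lay above the 4 day 5 arrays, which read 981, 980, 952 and 1206 (log2 change 0.71 ± 0.14 SE, adjusted p = 0.00646). Their shared receptor Tek (Tie2) rose (log2 change 0.86 ± 0.28 SE, adjusted p = 0.0253). This call was lost without control array A (adjusted p = 0.0597) or day 20 array E (adjusted p = 0.0531). Tie1, its partner receptor, rose by 2.05 (adjusted p = 4.56e-05), and with a pseudocount of 1 the log2 change was 4.06 and with 500 it was 0.83. The VEGF receptor genes Flt1 and Flt4 rose by 2.03 (adjusted p = 5.33e-06) and 2.02 (adjusted p = 1.21e-05). In all, 11 of 14 tested members of this list rose and none fell.

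In the TGF-beta and BMP list 11 of 25 tested genes rose and 1 fell. Tgfb2, a TGF-beta ligand, had 3733, 3797, 3162, 3262 and 2761 on the day 20 arrays, against 1566, 1919, 2777, 2000.2 and 1619 on the control arrays (log2 change 0.75 ± 0.16 SE, adjusted p = 0.00179), and it was also higher than on day 5, where it read 1601 ± 316 (n = 4; log2 change 1.03 ± 0.17 SE, adjusted p = 0.00177). Eng, endoglin, the endothelial coreceptor, had 3972, 3580.1, 2913, 3908 and 5081 on the day 20 arrays, against 1336, 1116, 1251, 1236 and 1334 on the control arrays (log2 change 1.54 ± 0.13 SE, adjusted p = 1.05e-07), with the groups far apart. Its partner Acvrl1 (ALK1) was at 657 ± 115 on day 20 and 671 ± 130.3 in control (SD, n = 5 each) and did not pass (log2 change -0.02 ± 0.23 SE, adjusted p = 0.953). Among matrix and secreted partners, the latent TGF-beta binding protein Ltbp2 rose by 1.71 (adjusted p = 0.000583), and the activin subunit Inhba by 1.91 (adjusted p = 0.0101). The coreceptor Tgfbr3 fell by 0.75 (adjusted p = 0.0122), and the inhibitory Smad6 did not pass (log2 change 0.20, adjusted p = 0.429).

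Of 19 tested endothelial identity genes 18 rose against control and none fell (median log2 change 1.78). Against day 5 none passed as higher and 2 passed as lower, with a median log2 change of -0.14. Cd93, a lectin of angiogenic endothelium, had 29017, 23894, 22307, 26723 and 37524 on the day 20 arrays, against 4247, 2988, 2379.6, 3269 and 3618 on the control arrays (log2 change 3.04 ± 0.19 SE, adjusted p = 2.46e-09). Cdh5, VE-cadherin, had 11397, 11132, 8209, 10058 and 12011 on the day 20 arrays, against 2063, 1812, 2708, 2025 and 3467 on the control arrays (log2 change 2.11 ± 0.20 SE, adjusted p = 3.36e-07). Pecam1, the adhesion molecule CD31, had 1657, 1518, 1311, 1317 and 2286 on the day 20 arrays, against 614, 498, 466, 675 and 639 on the control arrays (log2 change 1.32 ± 0.20 SE, adjusted p = 6.64e-05), again without overlap. Ecscr and Clec14a, both endothelial surface proteins, were lower on day 20 than on day 5 (log2 change -0.61 ± 0.17 SE, adjusted p = 0.0385 and log2 change -0.64 ± 0.17 SE, adjusted p = 0.0313). Both of these calls were lost when day 5 array B or C or day 20 array A, B, C or D was left out, with adjusted p up to 0.131 for Ecscr and 0.0985 for Clec14a. That of Clec14a was also lost without day 5 array D (adjusted p = 0.0679).

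Of 16 tested arterial and Notch genes 13 rose and none fell. Hey2, a transcription factor that Notch switches on in arteries and mural cells, had 2084, 2061, 1425, 2228 and 2214 on the day 20 arrays, against 397, 385, 462, 488 and 342 on the control arrays (log2 change 2.02 ± 0.20 SE, adjusted p = 6.45e-07). Of this list it alone passed as higher than on day 5, at 2002 ± 331 on day 20 and 621 ± 168 on day 5 (n = 4; log2 change 1.56 ± 0.22 SE, adjusted p = 0.000328). Notch4, the endothelial Notch receptor, rose by 3.18 (adjusted p = 1.01e-06), Sox17, an arterial transcription factor, by 2.02 (adjusted p = 9.29e-06) and Efnb2, the arterial ephrin ligand, by 1.42 (adjusted p = 0.000414). Notch1 did not pass (log2 change -0.08, adjusted p = 0.703), and Gja5, the arterial connexin, lay under the minimum signal.

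The promoter of Hey2 is shown because the Notch effector RBPJ binds the letters GTGGGAA, or TTCCCAC when read on the other strand, which are in capitals.
Hey2, chr10:30842784-30843033, minus strand: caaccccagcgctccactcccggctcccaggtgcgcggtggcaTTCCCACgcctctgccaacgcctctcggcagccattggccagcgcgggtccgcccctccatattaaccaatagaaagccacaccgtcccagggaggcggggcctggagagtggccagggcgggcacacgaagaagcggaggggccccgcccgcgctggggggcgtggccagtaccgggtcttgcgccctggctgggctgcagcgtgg
The match stood 207 bases before the start, in the RefSeq sequence on GRCm38.p6. On both strands GTGGGAA was found in 5.42% of all promoters of this length. Among the 14 arterial and Notch genes with an entry Hey2 alone held it, and among 12 pericyte genes with an entry it was found in Gucy1a1 and Ebf1. Ebf1, a transcription factor of pericytes and fat, was chosen after its values were seen (log2 change 1.01 ± 0.16 SE, adjusted p = 9.35e-05).

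Venous and venular genes rose in 6 of 9 cases, with Vcam1, an adhesion molecule for leukocytes, in front (log2 change 2.48 ± 0.21 SE, adjusted p = 1.05e-07). Aplnr, the apelin receptor of veins, read 90635 ± 12739 on day 20 and 26679 ± 5974 in control (SD, n = 5 each; log2 change 1.78 ± 0.21 SE, adjusted p = 3.14e-06). Selp, the P-selectin of venules, had 4592, 5092, 3469, 5119 and 1802 on the day 20 arrays, against 1573, 2514, 1826, 2204 and 1489 on the control arrays (log2 change 0.96 ± 0.27 SE, adjusted p = 0.0105), and with the exception of array E the day 20 arrays exceeded the controls. Ackr1, the chemokine receptor of venules, had 2930, 1971, 1509, 2525 and 1866 on the day 20 arrays, against 2115, 3039, 3890.2, 3135 and 2035 on the control arrays and did not pass (adjusted p = 0.235). Selp was also higher than on day 5 (log2 change 1.21 ± 0.28 SE, adjusted p = 0.0155). Against control Selp lost its call with the Actb ratio as a covariate (adjusted p = 0.0633).

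Capillary genes for fatty acid uptake went both ways, with 4 of 10 higher and 2 lower. Gpihbp1, the capillary anchor of lipoprotein lipase, had 14508, 12513, 9502, 8552 and 13351 on the day 20 arrays, against 4527, 2001, 2244, 2099.7 and 4927 on the control arrays (log2 change 1.93 ± 0.28 SE, adjusted p = 3.19e-05). Meox2, a transcription factor of capillaries that carry fatty acids, had 11745, 11305, 8765, 13132 and 10597 on the day 20 arrays, against 4158, 3961, 3631, 4303 and 3686 on the control arrays (log2 change 1.46 ± 0.14 SE, adjusted p = 4.09e-07). Both genes had non-overlapping groups. Cd36, the fatty acid transporter that fat cells use as well, did not pass (log2 change -0.79 ± 0.31 SE, adjusted p = 0.0593). Timp4, an inhibitor of matrix proteases made by capillaries and fat, fell (log2 change -1.05 ± 0.26 SE, adjusted p = 0.00547). All 7 adipocyte markers fell as well, and the part of fat in the fall of Timp4 was not tested.

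Of 15 junction, caveola and permeability genes 8 rose and 1 fell, and of 16 vasoactive and anticoagulant genes 8 rose and 1 fell. Plvap, the diaphragm protein of leaky vessels, had 20357, 15504, 15352, 20564 and 21526 on the day 20 arrays, against 7041, 5963, 4969, 6347 and 4894 on the control arrays (log2 change 1.66 ± 0.15 SE, adjusted p = 1.93e-07). Cldn5, the claudin of tight endothelial junctions, had 5439, 4938, 4146, 3546 and 4423 on the day 20 arrays, against 2746, 1569.6, 1461, 1500.4 and 2760.1 on the control arrays (log2 change 1.17 ± 0.23 SE, adjusted p = 0.000792). In both, all day 20 arrays stood above the controls. The flow-responsive factors Klf2 and Klf4 did not pass (log2 change 0.45 ± 0.20 SE, adjusted p = 0.105; log2 change -0.33 ± 0.26 SE, adjusted p = 0.364), nor did Thbd, thrombomodulin (log2 change 0.37 ± 0.23 SE, adjusted p = 0.245), or the water channel Aqp1 (log2 change 0.43 ± 0.23 SE, adjusted p = 0.18). Tfpi, an inhibitor of coagulation, rose by 1.83 (adjusted p = 1.02e-06), and Ednrb, the endothelin receptor of endothelium, by 1.77 (adjusted p = 0.000446). Ptgis, the prostacyclin synthase, fell to 406 ± 90.7 on day 20, against 957 ± 303 in control (SD, n = 5 each; log2 change -1.03 ± 0.31 SE, adjusted p = 0.0152). It was lower than on day 5 too (log2 change -1.40 ± 0.32 SE, adjusted p = 0.0145), a call that was lost without day 5 array C (adjusted p = 0.0538).

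Of 17 tested tip cell genes 16 rose and none fell. Esm1, endocan, had 30492, 31008, 23673, 27752 and 38427 on the day 20 arrays, against 717, 624, 765, 1371 and 1042 on the control arrays (log2 change 4.95 ± 0.40 SE, adjusted p = 4.9e-08). Kcne3, a potassium channel subunit, had 4370.2, 4232, 3439, 3059 and 8827 on the day 20 arrays, against 103, 161, 95.2, 53.4 and 102 on the control arrays (log2 change 4.51 ± 0.24 SE, adjusted p = 3.01e-10). The nidogen Nid2 had 8418, 7909.6, 6489.8, 8173 and 12180.2 on the day 20 arrays, against 474, 632, 836, 768 and 710.1 on the control arrays (log2 change 3.47 ± 0.19 SE, adjusted p = 3.01e-10). None of these genes had overlapping groups. Against day 5 the log2 changes were 0.05, -0.87 and -0.13 and none passed (adjusted p = 0.961, adjusted p = 0.0553 and adjusted p = 0.766). Lymphatic genes rose in 3 of 6 cases. Mmrn1, a multimerin of lymphatic endothelium and platelets, had 4568, 11549, 8331, 6112 and 2989 on the day 20 arrays, against 1167, 947, 1319, 976 and 693 on the control arrays (log2 change 2.48 ± 0.41 SE, adjusted p = 0.000138). Flt4 and Nr2f2 rose too and are also used by blood vessels. Lyve1, the hyaluronan receptor of lymphatics and some macrophages, did not pass (log2 change -0.25 ± 0.46 SE, adjusted p = 0.714). Prox1, the defining factor of lymphatic identity, lay under the minimum signal, at 361 ± 212 on day 20 and 96.9 ± 38.8 in control (SD, n = 5 each).

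Basement membrane genes rose in 16 of 23 cases, and 2 fell. Col4a1 and Col4a2 make the type IV collagen of every vessel. Col4a1 had 85046, 91821, 104525, 81963 and 118226 on the day 20 arrays, against 15607, 15131, 17317, 16632 and 20408 on the control arrays (log2 change 2.49 ± 0.15 SE, adjusted p = 1.38e-09). Col4a2 had 43621, 55704, 49970, 41708 and 59302 on the day 20 arrays, against 4870.3, 4979.9, 4025, 4861 and 5299 on the control arrays (log2 change 3.35 ± 0.19 SE, adjusted p = 5.3e-10). Lama4, the laminin chain of vessels, rose by 1.97 (adjusted p = 1.08e-06), and Col18a1, the source of endostatin, by 2.71 (adjusted p = 1.07e-08). No control array reached the day 20 level in any of them. The 2 that fell were the type IV chains Col4a5, by 0.74 (adjusted p = 0.00961), and Col4a4, by 0.95 (adjusted p = 0.0348). The call of Col4a4 was lost without control array A, C or E or day 20 array B or C, with adjusted p of 0.0649 to 0.112. Hspg2, perlecan, did not pass (log2 change -0.02 ± 0.20 SE, adjusted p = 0.96). Col8a2, a short-chain collagen, was higher than in control (log2 change 2.10 ± 0.38 SE, adjusted p = 0.000359) and than on day 5 (log2 change 2.47 ± 0.40 SE, adjusted p = 0.00138).

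Fibrillar and associated collagens rose in 12 of 14 cases and none fell (median log2 change 1.88). Col1a1, the main chain of fibrous tissue, had 34673, 69381, 62820.2, 53308 and 26417 on the day 20 arrays, against 8861, 8532, 13153, 9457 and 10920.3 on the control arrays (log2 change 2.19 ± 0.29 SE, adjusted p = 1.36e-05). Col3a1, of pliable fibrils, had 106204, 133545, 148231, 119788 and 105309 on the day 20 arrays, against 41190.2, 81602, 51511, 55587 and 69731 on the control arrays (log2 change 1.06 ± 0.18 SE, adjusted p = 0.000209). Col12a1, which coats collagen fibrils, had 14173, 32926, 36224, 19269.8 and 13218 on the day 20 arrays, against 1050.4, 2533, 2027, 1871 and 1166 on the control arrays (log2 change 3.61 ± 0.28 SE, adjusted p = 3.39e-08). The groups did not overlap, and Col12a1 was 12.2-fold higher. Col11a1, a fibril-starting collagen, was the only member that passed against day 5, at 5446 ± 2754 on day 20 and 1105 ± 569 on day 5 (n = 4; log2 change 2.20 ± 0.35 SE, adjusted p = 0.000998). Of 20 genes for collagen processing and crosslinking 12 rose and 1 fell. Among them the procollagen protease enhancer Pcolce rose by 2.26 (adjusted p = 4.99e-07). The crosslinking enzyme Lox rose by 1.89 (adjusted p = 3.19e-05) and the chaperone Serpinh1 by 0.94 (adjusted p = 0.000918). Pcolce2 fell by 1.49 (adjusted p = 0.00126).

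Of 11 tested elastic fibre genes 5 rose and 2 fell. Eln, elastin, had 6235, 7799, 7187, 6534 and 5089.9 on the day 20 arrays, against 3443, 2838, 4022, 4207 and 2139 on the control arrays (log2 change 0.98 ± 0.18 SE, adjusted p = 0.000397), and on the 4 day 5 arrays it had 2049, 1937, 2091 and 2601 (log2 change 1.55 ± 0.19 SE, adjusted p = 0.000121). Day 20 was therefore above both earlier groups with no overlap. Emilin1, an elastin-associated protein, rose by 2.33 (adjusted p = 0.000279) and Fbn2, a fibrillin, by 2.39 (adjusted p = 3.48e-05), whereas the fibulin-like Efemp1 fell by 1.52 (adjusted p = 0.000374). For Emilin1, with a pseudocount of 1 the log2 change was 3.80 and with 500 it was 1.13.

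Among 10 small leucine-rich proteoglycans, which bind collagen fibrils, 4 rose and 1 fell against control, and 4 passed as higher than on day 5. Of all tested genes 3.05% passed as higher than on day 5. Fmod, fibromodulin, had 4065, 18838, 12819, 6735 and 4282 on the day 20 arrays, against 464, 798, 408, 477 and 580.1 on the control arrays (log2 change 3.64 ± 0.48 SE, adjusted p = 1.36e-05), and 638, 970.5, 402 and 866 on the day 5 arrays (log2 change 3.33 ± 0.51 SE, adjusted p = 0.000852). Its day 20 arrays spread from 4065 to 18838, yet all lay above the other 2 groups. Bgn, biglycan, had 38191, 74498, 71211, 43257 and 38566 on the day 20 arrays, against 6481, 10377, 7379, 6067 and 7041 on the control arrays (log2 change 2.78 ± 0.26 SE, adjusted p = 2.14e-07). Aspn, asporin, had 36228, 44002, 37607, 37134 and 33562 on the day 20 arrays, against 2975, 8010.2, 5639, 4999 and 4238 on the control arrays (log2 change 2.91 ± 0.21 SE, adjusted p = 1.4e-08). Lum, lumican, did not pass against control (log2 change 0.24 ± 0.23 SE, adjusted p = 0.464) and was higher than on day 5 (log2 change 1.71 ± 0.25 SE, adjusted p = 0.000436). Dcn, decorin, fell against control (log2 change -0.62 ± 0.19 SE, adjusted p = 0.0181), a call that was lost without day 20 array E (adjusted p = 0.0564).

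The matricellular genes, whose products modulate how cells hold the matrix, rose in 11 of 17 cases and none fell. Sparc had 96526, 118915, 127561, 96193 and 97993 on the day 20 arrays, against 17574, 32204, 16162, 19159.7 and 24645 on the control arrays (log2 change 2.32 ± 0.21 SE, adjusted p = 1.92e-07). Ccn2, connective tissue growth factor, had 28281, 74164, 58294, 30983 and 30487 on the day 20 arrays, against 4515, 10062, 3407, 4022 and 3935 on the control arrays (log2 change 3.08 ± 0.50 SE, adjusted p = 0.000112). Its relative Ccn3 had 12999.5, 33162, 31868, 19399 and 14199 on the day 20 arrays, against 1031, 2175, 3824, 2739 and 1519.9 on the control arrays (log2 change 3.27 ± 0.38 SE, adjusted p = 2.81e-06). No groups overlapped, and arrays B and C were the highest of day 20 in all 3. Ccn3 was higher than on day 5 as well (log2 change 2.09 ± 0.40 SE, adjusted p = 0.00439). Tnc, tenascin C, a protein of early wound matrix, was lower and read 7685 ± 4514 on day 20 and 20924 ± 2894 on day 5 (n = 4; log2 change -1.63 ± 0.32 SE, adjusted p = 0.00587), although it was above control (log2 change 1.85 ± 0.31 SE, adjusted p = 0.000151). Tnxb, tenascin X of mature connective tissue, did not pass (log2 change -0.19 ± 0.28 SE, adjusted p = 0.653). Of 6 tested mineralisation and bone genes 3 rose and 1 fell. Mgp, the matrix Gla protein that keeps vessel walls free of mineral, had 48016, 54819, 60942, 47981 and 63263 on the day 20 arrays, against 1880, 2579, 1360, 1782 and 1836 on the control arrays (log2 change 4.81 ± 0.41 SE, adjusted p = 9.44e-08), which was 28.1-fold. Tnfrsf11b, osteoprotegerin, which holds back bone resorption, rose by 2.63 (adjusted p = 5.46e-05).

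None of 14 tested resting fibroblast genes rose and 7 fell, and of 17 tested activated fibroblast genes 12 rose and 2 fell. Scara5, a scavenger receptor of resting fibroblasts, had 6047, 5709, 5520, 7059 and 5620.3 on the day 20 arrays, against 12035, 17262, 19211, 14402 and 17229 on the control arrays (log2 change -1.39 ± 0.34 SE, adjusted p = 0.00434). Pi16, a marker of adventitial fibroblasts, had 2227, 1893, 1766, 3145 and 3945 on the day 20 arrays, against 5853, 4751, 13184, 9505 and 12508 on the control arrays (log2 change -1.74 ± 0.43 SE, adjusted p = 0.00518). All day 20 arrays were below all controls in both. Scara5 was nonetheless 2.89-fold higher than on day 5, where its arrays read 3394, 1105, 1898 and 2224 (log2 change 1.53 ± 0.36 SE, adjusted p = 0.0164), a call that was lost without day 5 array C (adjusted p = 0.0703). In all, 4 resting fibroblast genes passed as higher than on day 5 and none as lower, beside 3.05% and 2.25% of all tested genes. Each of the 4 lost its call under at least 1 alternative. When the array with conflicting labels was counted as a control, only 1 of the 14 fell. Over the resting fibroblast list that array summed to 108998, against 225457 to 296662 on the control arrays and 100161 to 120157 on the day 5 arrays. Pi16 lost its call when all its probe sets were averaged (adjusted p = 0.244). In the activated list Adam12, a metalloprotease, rose by 2.80 (adjusted p = 2.2e-07), the aggrecanase Adamts4 by 3.41 (adjusted p = 6.75e-08) and Postn, periostin, by 1.63 (adjusted p = 0.00065). The 2 that fell were the ligand Wnt5a (log2 change -1.21 ± 0.29 SE, adjusted p = 0.00383) and the hedgehog target Gli1 (log2 change -0.59 ± 0.12 SE, adjusted p = 0.00105). Lrrc15, a marker of activated fibroblasts in fibrosis and tumours, did not pass (log2 change -0.22 ± 0.37 SE, adjusted p = 0.679).

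**Figure D3:**
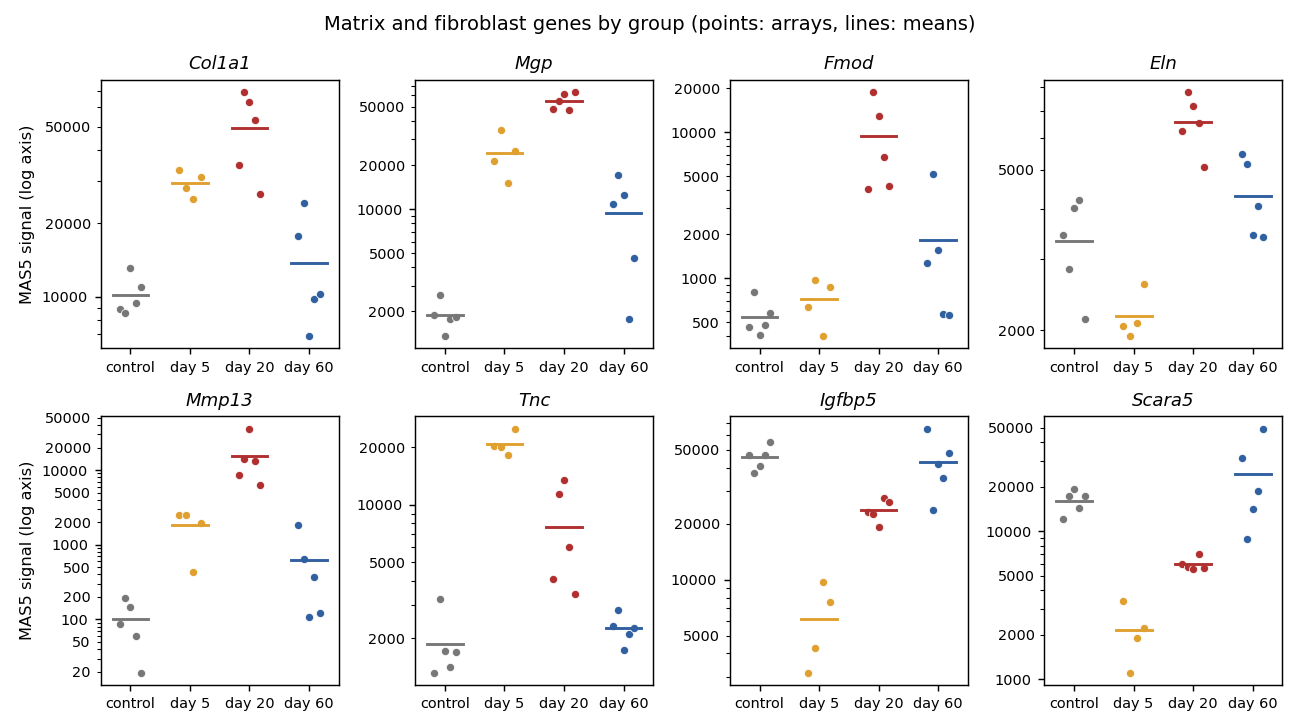
MAS5 signals (log axes) of matrix and fibroblast genes in control, day 5, day 20 and day 60; points are arrays and lines are group means. Fmod, Eln and Mmp13 are at their highest on day 20, Tnc is at its highest on day 5, and Igfbp5 and Scara5 are at their lowest on day 5 and between the day 5 and control arrays on day 20.

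Of 21 matrix proteases and inhibitors 9 rose and 1 fell. Mmp13, a collagenase that opens fibrillar collagen, had 8471, 13853, 35795, 13168 and 6305 on the day 20 arrays, against 87.9, 196, 149, 59.5 and 19.4 on the control arrays (log2 change 6.07 ± 0.57 SE, adjusted p = 2.66e-07). All control signals lay under the minimum of 300 set for the mean signal, so the size depends on the pseudocount, and with a pseudocount of 1 the log2 change was 7.33 and with 500 it was 4.49. It read 1834 ± 964 on day 5 (n = 4; log2 change 2.98 ± 0.61 SE, adjusted p = 0.00648). Day 20 arrays ranged from 6305 to 35795 and did not overlap with control or day 5. Timp1, the inhibitor of many matrix proteases, had 3864, 11302, 8989, 5249.6 and 2934 on the day 20 arrays, against 364, 553, 674, 601 and 424 on the control arrays (log2 change 3.25 ± 0.34 SE, adjusted p = 1.02e-06). Mmp14, the membrane protease that activates MMP2, did not pass (log2 change 0.57 ± 0.22 SE, adjusted p = 0.0579). The stromal protease Mmp11 was higher than on day 5 too (log2 change 1.51 ± 0.31 SE, adjusted p = 0.00754). Integrins rose in 9 of 15 cases and 1 fell. Itga1, the collagen receptor subunit, had 7361, 9570, 10183, 6984 and 8479 on the day 20 arrays, against 796, 609, 541, 628 and 758 on the control arrays (log2 change 3.49 ± 0.27 SE, adjusted p = 2.66e-08). Its partner Itgb1 rose by 1.81 (adjusted p = 7.44e-08), Itga5 of the fibronectin receptor by 1.91 (adjusted p = 8.58e-06), and the TGF-beta-activating Itgb8 fell by 1.51 (adjusted p = 5.82e-05). For Itga5, with a pseudocount of 1 the log2 change was 2.72 and with 500 it was 0.97. Itga9, a receptor for tenascin C, was above control and day 5 (log2 change 1.96 ± 0.30 SE, adjusted p = 6.54e-05; log2 change 1.81 ± 0.32 SE, adjusted p = 0.00238).

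Of 10 genes of the IGF axis 3 rose and 2 fell, all of them binding proteins that hold or present insulin-like growth factors. Igfbp7, a vessel-enriched member, had 78117, 96936, 82079.8, 79747 and 88866 on the day 20 arrays, against 12085, 14552, 11924, 13256 and 14952 on the control arrays (log2 change 2.67 ± 0.18 SE, adjusted p = 5.06e-09). Igfbp2 had 1169, 3555, 1991, 982 and 1234 on the day 20 arrays, against 266, 365, 413, 346 and 254 on the control arrays (log2 change 2.00 ± 0.32 SE, adjusted p = 9.56e-05). Igfbp3 rose against control (log2 change 2.54 ± 0.25 SE, adjusted p = 4.03e-07) and was lower than on day 5 (log2 change -1.30 ± 0.26 SE, adjusted p = 0.00646). Igfbp5 ran the other way, at 45538 ± 6652 in control (n = 5), 6172 ± 3005 on day 5 (n = 4) and 23779 ± 3263 on day 20 (SD, n = 5). On day 20 it was below control (log2 change -0.93 ± 0.26 SE, adjusted p = 0.0115) and 4.14-fold above day 5 (log2 change 2.05 ± 0.28 SE, adjusted p = 0.00029).

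Counted over all 25 lists, 47 members were higher and 8 lower on day 20 than on day 5, and 168 were higher and 26 lower than on day 60. Over all tested genes 3.05% were higher and 2.25% lower than on day 5, and 11.2% and 11% than on day 60. With 383 genes in the lists, the 8 lower members are near the share over all genes, and the 26 lie under it. Of the 55 members called against day 5, 23 kept their call under every alternative that was run. On the array of conflicting labels the endothelial identity genes summed to 182871, against 34355 to 43196 on the control arrays and 169567 to 181310 on the day 5 arrays. With that array counted as a control, 31 members were higher and 1 lower than on day 5, and counted as day 5 it gave 65 higher and 11 lower. Counted as a control it ended the calls against day 5 of Gucy1b1 (adjusted p = 0.104), Mmp13 (0.0571), Tnc (0.15), Igfbp3 (0.293), Igfbp5 (0.0538), Lmod1 (0.0849), Ecscr (0.452), Clec14a (0.395) and Scara5 (0.115). It also ended those against control of Scara5 (adjusted p = 0.146), Pi16 (0.191), Igfbp5 (0.673), Dcn (0.266), Des (0.126), Synpo2 (0.127), Tnc (0.098), Tgfbr3 (0.0889), Timp4 (0.076), Col4a4 (0.216) and Col4a5 (0.0606). With the Actb ratio as a covariate the calls against control of Tek (adjusted p = 0.0715), Inhba (0.0531), Igfbp5 (0.0586), Des (0.0891), Synpo2 (0.077) and Col4a4 (0.0833) ended. With the mean of all probe sets those against day 5 of Itga8 (adjusted p = 0.0527), Clec14a (0.302) and Scara5 (0.0954) ended, and those against control of Des (0.101), Synpo2 (0.948) and Col4a4 (0.362).

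Sizes moved with the processing as well. Of 145 named genes called against control, 64 had a fold that moved by over 1.5 times under at least 1 alternative. There were 39 such genes with the mean of all probe sets, 30 with a pseudocount of 500, 15 with a pseudocount of 1 and 23 with the array of conflicting labels as a control. With the mean of all probe sets the log2 change against control was 0.89 for Cdh5, 1.56 for Notch4, 2.01 for Gucy1a1, 1.31 for Vcam1 and 1.39 for Pcdh12. Among stromal genes it was 1.32 for Col12a1, 2.19 for Fmod, 1.10 for Emilin1, 0.75 for Itga5 and 1.10 for Tnfrsf11b. For Vegfa it was 2.09, for Mmrn1 1.3, for Pi16 -0.66, for Synpo2 -0.03 and for Pck1 -1.79. A pseudocount of 500 gave 3.80 for Vegfa, 3.04 for Kcne3, 2.61 for Pcdh12, -3.60 for Pck1 and -3.70 for Krt18. Against day 5, 9 of the 55 called members moved by over 1.5 times. Among them Itga9 was at 0.53, Igfbp5 at 0.91 and Fmod at 2.20 with the mean of all probe sets, and Col8a2 at 3.53 with a pseudocount of 1. The genes given here with their values are those of the text that moved by over 2-fold, beside those whose range stands with their result.

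**Figure D4:**
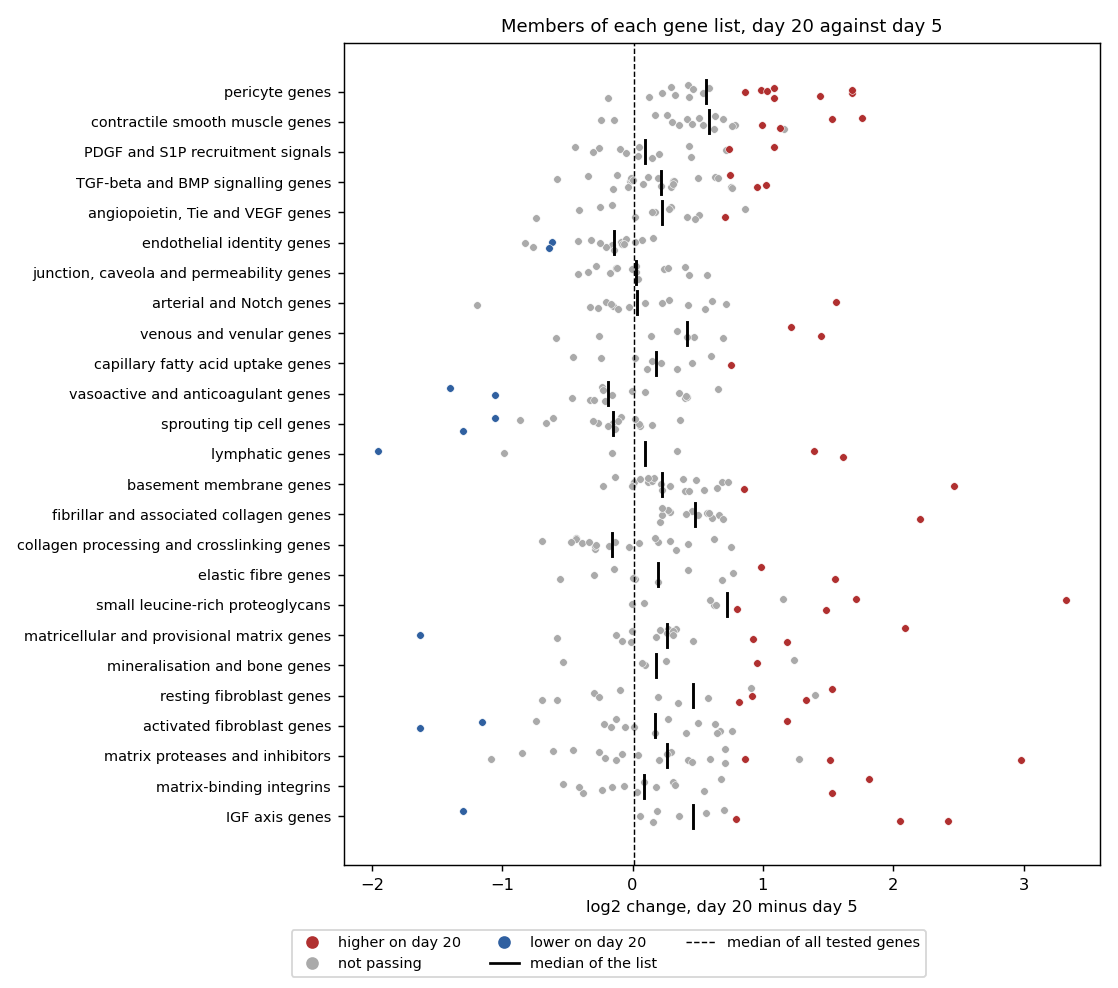
Log2 change of day 20 minus day 5 for each tested member of the 25 lists; points are genes, coloured by call, black bars are list medians and the dashed line is the median of all tested genes (0.01). Pericyte and contractile genes lie mostly to the right, endothelial identity and tip cell genes around 0 or to the left.

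The 5 day 20 arrays differed among themselves in stroma and muscle genes. In all 14 tested fibrillar collagens arrays B and C were the 2 highest of day 20, which was so for 16.2% of all tested genes. The same order held for 15 of 17 matricellular genes and for 9 of 10 macrophage markers, and in 10 of 11 skeletal muscle markers B and C were the 2 lowest (15.3% of all tested genes). Arrays B and C were singled out after these values were seen, so the counts are a description. The collagen signals summed to 460754, 685984, 712186, 528780 and 469469 on arrays A to E, and the skeletal muscle signals to 828523, 413105, 535924, 716390 and 984187. Arrays B and C thus had the highest collagen sums and the lowest muscle sums. This did not hold from array to array, as C exceeded B and E exceeded A in both sums. Pericyte genes varied far less, with sums of 265436, 276883, 288590, 265117 and 315291, and B and C were their 2 highest arrays in 3 of 18 genes. The median SD of log2 values among the day 20 arrays was 0.57 for matricellular genes, 0.38 for collagens and 0.21 for pericyte genes, beside 0.24 for all tested genes. Even so Col1a1 ranged from 26417 to 69381 on the day 20 arrays, against 8532 to 13153 on the control arrays.

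**Figure D5:**
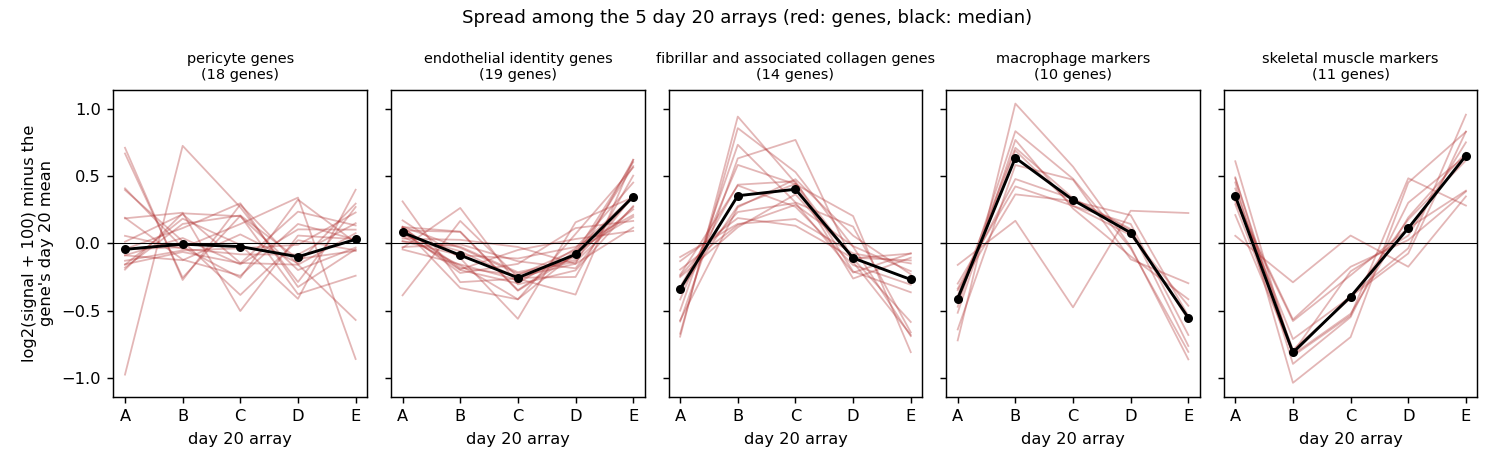
Deviation of log2(signal + 100) from the gene's own day 20 mean on arrays A to E, for 5 lists; red lines are genes and black lines their median. Collagen and macrophage genes peak on arrays B and C, skeletal muscle genes are lowest there, and pericyte genes stay near 0.

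Over all tested genes, the 10 largest rises and 10 largest falls by log2 change with non-overlapping arrays held, among others, vessel and stromal genes and genes of fat and epithelium. Pcdh12, a protocadherin of endothelial cells, read 3489 ± 595 on day 20 and 149 ± 44.6 in control (SD, n = 5 each; log2 change 3.85 ± 0.24 SE, adjusted p = 1.38e-09). F2r, the thrombin receptor of vessel and stromal cells, read 76520.4 ± 10382 on day 20 and 5909 ± 223 in control (SD, n = 5 each; log2 change 3.66 ± 0.31 SE, adjusted p = 7.97e-08). Pck1, an enzyme of glyceride synthesis in fat, read 166 ± 32.6 on day 20 and 8450 ± 4493 in control (SD, n = 5 each; log2 change -4.85 ± 0.64 SE, adjusted p = 1.2e-05). The epithelial keratin Krt18 read 220.2 ± 49 on day 20 and 8979 ± 1703 in control (SD, n = 5 each; log2 change -4.82 ± 0.58 SE, adjusted p = 4.25e-06).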

How the data were processed

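RNA of mouse flank tissue was hybridised to Affymetrix Mouse Genome 430 2.0 arrays. The authors deposited linear signal intensity values that MAS5 in GCOS 1.3 had computed with a scaling factor of 1500, per the labels and, for the software, per the submitters' processing notes. Read depth does not apply, and the number of arrays limits the precision. Among 45101 probe sets, 64 of them controls, the platform annotation named a single gene for 34958, several for 932 and none for 9211. Symbols of 34754 were updated through the current gene table, and the others kept the symbol of the annotation. The probe set with the highest mean signal stood for each of 18193 genes. Arrays of the vector entered that mean, so the choice of probe set was not independent of the groups compared.

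Groups came from titles and source names, and 1 array whose title and source name disagree was left out. limma 3.58.1 in R 4.3.3 fitted group means to log2(signal + 100) of 19 arrays, with eBayes and a trend, for 13594 genes with a mean signal of at least 300, and p-values were adjusted by Benjamini-Hochberg. The fit was tested on simulated data: of genes changed 1.5-fold 40.3%, 2-fold 73.1% and 4-fold 98.5% were called in day 20 against control. Only 67, 67 and 66 genes were changed there, with independent normal noise and the same spread in every group. Far more genes were called in the data and spreads differed between groups, so these shares need not hold for them. The members and lists were chosen with earlier results of these data known. Of 495 listed genes 461 had a probe set of their own and 433 were tested. Named genes are those marked as key in the lists, Vegfa, the 2 largest rises and falls of each list in each comparison, and the 10 largest rises and falls over all genes whose arrays do not overlap, and others are said to be chosen after their values were seen. Promoters are from RefSeq. Alternatives were other pseudocounts, minimum signals, normalizations, variance models, arrays, probe set rules and covariates.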

Additional observations from a re-analysis of the deposited data

Results flagged for a closer look

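Among 314 groups of arrays behind the genes named, 18 held an array far from its others, 15 of them high and 3 low, and chance flags about 1 in 20 groups. On day 20, array C was far above the others in Mmp13 (35795, next 13853) and far below in Hey2 (1425, next 2061), array D was high in Col4a5 (6635, next 3966), and array E was high in Flt1 (13852, next 7693), Kcne3 (8827, next 4370) and Nos3 (1885, next 1395). In control, array B was high in Ccn2 (10062, next 4515) and Tnc (3198, next 1723) and low in Flt4 (676, next 1108) and Pdgfb (859.7, next 1225). Control array E was high in Emilin1 (249.8, next 54.7), Steap4 (17609, next 11877), Tnxb (2968, next 1940.5) and Vegfa (467, next 162), control array A in Ltbp2 (1212, next 746), and control array C in S1pr1 (2664, next 1884). On day 5, array E was high in Angpt1 (1206, next 981), and on day 60, array B was high in Vegfa (1076, next 449).

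The comparisons of day 20 with the other times gave tested differences between time points. Of the list members 47 were higher and 8 lower than on day 5, and 168 were higher and 26 lower than on day 60. Over all tested genes these shares were 3.05% and 2.25% against day 5, and 11.2% and 11% against day 60. The array whose title gives day 5 and whose source name gives a day 0 control, which entered no comparison, had a Vegfa signal of 11111, above the highest control array at 467.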

How the results depend on the processing

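Among named genes called against control and list members called against day 5, none changed its direction under the alternatives run. Sizes moved: the fold of 64 of 145 such genes against control and of 9 of 55 members against day 5 changed by over 1.5 times under at least 1 alternative. Of the counts over genes, 173 of those recomputed stayed within 1.5 times the value reported and 17 moved further. With a pseudocount of 500, 533 genes rose and 356 fell at least 2-fold against control, and 13 list members were lower than on day 5. Members lower than on day 5 numbered 20 with array weights and 13 with only the compared groups in the fit. With the array of conflicting labels as a control, 1320 genes rose and 1034 fell, 387 fell at least 2-fold, and 31 members were higher and 1 lower than on day 5. The causes of these moves were not tested.

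With single arrays left out, 1725 to 2174 genes rose and 1448 to 2109 fell against control, 727 to 845 rose and 501 to 700 fell at least 2-fold, 37 to 47 members were higher and 4 to 8 lower than on day 5, and 153 to 174 were higher and 21 to 34 lower than on day 60. Members lower than on day 5 numbered 4 without day 20 array A and 5 without day 5 array B, C or D or day 20 array C or D. Of the values of named genes against control, 4029 kept their side of the threshold, 106 lost it and 24 newly passed. Of those of members called against day 5, 1115 kept it and 144 lost it.

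Day 20 and control share the letters A to E. The deviations of arrays with the same letter correlated at 0.03, -0.24, 0.02, 0.01 and 0.35, so the letters were not taken as pairs. With the letter as a replicate block 2077 genes rose and 2044 fell against control, 45 members were higher and 5 lower than on day 5, and 167 were higher and 26 lower than on day 60. Weak signals limit the dimmest genes, and 28 listed genes lay under the minimum.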

Other observations

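Markers of some blood cells were higher on day 20 than in control, and those of others were not. None of the tested 2 T and NK cell, 3 B and plasma cell and 5 mast cell markers rose, and 1 mast cell marker fell. Both tested red cell genes rose, the heme synthesis enzyme Alas2 with signals of 4852, 3815, 1753, 2349.5 and 2839.5 on the day 20 arrays, against 702, 490, 670.2, 1033 and 826 on the control arrays (log2 change 1.88 ± 0.34 SE, adjusted p = 0.000399) and the red cell anion exchanger Slc4a1 with 8607, 5862, 2038, 3729 and 5122 on the day 20 arrays, against 898, 1552, 1421, 893 and 352 on the control arrays (log2 change 2.19 ± 0.47 SE, adjusted p = 0.00157). Neither gene had overlapping groups. Of 4 tested platelet markers 1 rose, Ppbp, a platelet chemokine, with signals of 9909, 17638, 10392, 5903 and 1760.3 on the day 20 arrays, against 444, 234, 438, 816 and 423 on the control arrays (log2 change 3.75 ± 0.51 SE, adjusted p = 1.95e-05), and its day 20 arrays differed widely among themselves. Of 4 tested neutrophil markers 3 rose, among them the calprotectin subunit S100a9 with 5056, 6507, 5919.6, 3208 and 1356 on the day 20 arrays, against 882, 1762, 769, 1294 and 459.6 on the control arrays (log2 change 1.93 ± 0.42 SE, adjusted p = 0.00175). The groups overlapped in S100a9 and in the other tested neutrophil markers. The genes named here were chosen after their values were seen, apart from Ppbp.

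Of 10 tested macrophage markers 2 rose and 1 fell, which is near the 15.6% and 14.5% of all tested genes. The one that fell was Cd163, the scavenger receptor for haemoglobin on resident macrophages, with 1703, 2163, 1349.8, 2283 and 2255 on the day 20 arrays, against 2538, 7569, 12274, 6719 and 4793 on the control arrays (log2 change -1.59 ± 0.50 SE, adjusted p = 0.0217), and one that rose was the Fc receptor Fcgr3, with 4564, 11407, 8905, 6199.6 and 3597 on the day 20 arrays, against 1035, 2532, 2930.3, 1826 and 1666 on the control arrays (log2 change 1.70 ± 0.40 SE, adjusted p = 0.00299). The groups did not overlap in either gene. Both were chosen after their values were seen. The other riser, Adgre1, lost its call under 7 of 24 alternatives.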
